A study of Caenorhabditis elegans with 5 samples.

Results

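The GATA factors of epidermis and intestine are 6 transcription factor genes, elt-1, elt-3, egl-18, elt-6, elt-2 and elt-7, which were chosen by name from the 19176 features of the count tables. RNA was measured in wild type N2 C. elegans by sequencing whole worms, in 2 libraries from L4 larvae and 3 libraries from adults on Day 6 of adulthood. Every animal was grown at 20° on plates with 2 mM IPTG and E. coli HT115 that carried the empty RNAi vector L4440, and Day 6 adults alone had also been kept from L4 onward on 25 µg/mL FUdR, which blocks DNA synthesis. Age and FUdR therefore cannot be told apart, and in RNA of whole worms fewer cells of a type cannot be told apart from less RNA per cell. The comparison asks which of the 6 genes differed between larvae and post-reproductive adults.

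GATA factors are zinc finger proteins that bind the letters GATA in the control regions of genes. In C. elegans the endoderm, which forms the intestine, and the epidermis, which secretes the cuticle, are both specified and maintained by factors of this family. ELT-1 commits embryonic cells to the epidermis and ELT-3 activates epidermal genes below it. EGL-18, also called ELT-5, and ELT-6 act in the seam cells, the stem-like cells of the lateral epidermis that respond to Wnt signals, and both have been described as repressors of elt-3 in adult worms. ELT-2 is the main activator of intestinal genes throughout life, and ELT-7 shares part of its work.

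The 6 genes lie at 5 places on 3 chromosomes in the WBcel235 assembly, by Ensembl annotation. The 2 seam cell genes are neighbors on chromosome IV, with egl-18 at 1902322 to 1917840 and elt-6 at 1917977 to 1921643, both on the plus strand and 137 bases apart. The gene elt-1 lies elsewhere on chromosome IV, at 9614995 to 9620280. On the X chromosome elt-2 spans 10481240 to 10483441 and elt-3 spans 13934874 to 13941216, and elt-7 lies on chromosome V at 4770670 to 4773086. None of the 6 shares exon sequence with another annotated gene. Their exons cover between 841 bases in elt-7 and 2212 bases in elt-1, and lengths are used below wherever levels of different genes are compared.

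The libraries held between 9368922 and 29247719 counts, and the 6 genes together took between 0.00142% and 0.00795% of them. L4 replicate 1 stood apart from the rest. It had counts in 12442 features against 14706 in L4 replicate 2 and 15251 to 16634 in the Day 6 libraries, its TMM scaling factor was 0.293 against 1.03 to 1.63 in the others, and its correlation with L4 replicate 2 was 0.796 across log2 CPM of genes, whereas the Day 6 libraries reached 0.959 to 0.971 among themselves. Both L4 libraries held the defining markers of the tissues at issue, as the intestinal esterase gene ges-1 stood at 30.3 and 40.2 CPM and the epidermal collagen gene dpy-7 at 229 and 63.9 CPM. On Day 6 ges-1 stood at 11.1 to 17.5 CPM, whereas dpy-7 was nearly absent, at 0.536 to 0.801 CPM. Neither gene stands for its whole tissue. The intestinal gene pho-1 went from 69.3 and 98.9 CPM at L4 to between 0.697 and 1.93 CPM on Day 6. The epidermal collagen gene col-19 stood at 183 to 367 CPM on Day 6. For the 6 GATA factors, values without L4 replicate 1 are given below where that library decides a call or a direction.

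No member passed the test between Day 6 and L4. With edgeR's quasi-likelihood test and Benjamini-Hochberg adjustment over all 12758 genes tested, 0 of 6 rose and 0 of 6 fell at an adjusted p under 0.05, while 14.3% of all genes tested rose and 12.5% fell. One member, egl-18, had an unadjusted p under 0.05, and DESeq2 and voom likewise called 0 of 6. The median log2 fold change of the members was -0.34, against 0.08 over all genes tested. Counts were put on one scale of depth, CPM after TMM scaling, which placed all 3 Day 6 libraries between the 2 L4 libraries for 4 of the 6 genes, an arrangement seen in 19.9% of all genes tested. The other members were egl-18, with every Day 6 library above every L4 library as in 35.4% of all genes tested, and elt-7, with every Day 6 library below as in 23.4%.

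**Figure D1:**
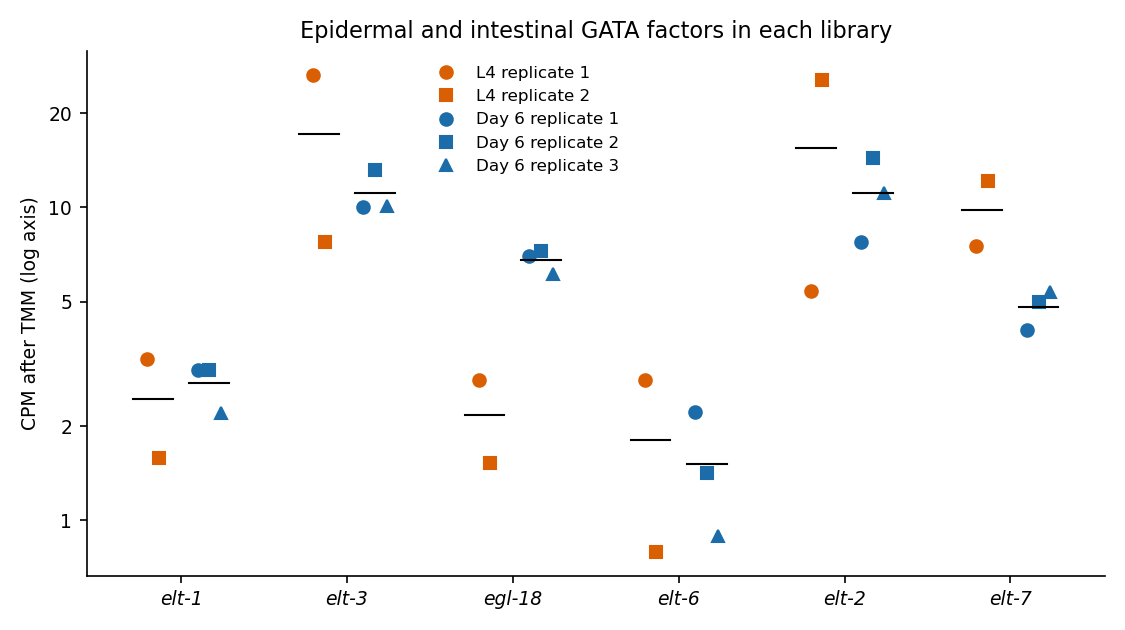
CPM after TMM scaling (log axis) of each gene in each library, with orange points for L4, blue points for Day 6 and black lines for group means. The groups separate for egl-18, at 6.13 to 7.26 CPM on Day 6 against 1.52 and 2.82 at L4, and for elt-7, and the 2 L4 libraries lie on either side of the Day 6 libraries for the other 4 genes.

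Among the epidermal genes, egl-18 gave the largest difference of the 6. Its level was 2.82 CPM in the first L4 library and 1.52 CPM in the second, and 7.01, 7.26 and 6.13 CPM in Day 6 replicates 1 to 3. The 3 Day 6 libraries lay within 1.18-fold of each other and above both L4 libraries. The mean was 2.17 ± 0.92 CPM (SD, n = 2) at L4 and 6.80 ± 0.59 CPM (SD, n = 3) on Day 6. The log2 fold change of 1.69 ± 0.64 (SE) had a 95% interval of 0.21 to 3.16 and did not pass, with an adjusted p of 0.0842 by edgeR's quasi-likelihood test. The L4 means rest on only 12 and 23 counts. Left with L4 replicate 2 alone, egl-18 rose by a log2 fold change of 2.24 (adjusted p = 0.00448), and left with L4 replicate 1 alone it rose by 1.28 (adjusted p = 0.0367), both by edgeR with the lone L4 library assumed to vary like Day 6. Over all genes tested the median log2 fold change was 0.07 without L4 replicate 1 and 1.05 without L4 replicate 2. These fits also called far more genes overall. Without L4 replicate 1, 26.0% of genes tested rose and 24.1% fell, and without L4 replicate 2, 36.5% rose and 24.2% fell.

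The neighbor elt-6 was read at 2.82 and 0.794 CPM at L4 and at 2.22, 1.41 and 0.893 CPM on Day 6. The Day 6 libraries fell inside the span of the L4 libraries, and counts were as low as 12 in each L4 library and 15 in Day 6 replicate 3. Its log2 fold change of -0.18 ± 0.89 (SE, adjusted p = 0.891 by edgeR) had a 95% interval of -2.23 to 1.88, which leaves room for a change of either sign larger than that fitted for egl-18. Without L4 replicate 1 the log2 fold change was 1.02 (adjusted p = 0.353 by edgeR).

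The balance between egl-18 and elt-6 can be read within each library, where scaling between libraries plays no part. There were 12 counts of egl-18 to 12 of elt-6 in L4 replicate 1 and 23 to 12 in L4 replicate 2, but 211 to 67, 154 to 30 and 103 to 15 in Day 6 replicates 1 to 3. The share of egl-18 in the pair was therefore 50.0% (95% exact binomial interval 29.1 to 70.9) and 65.7% (47.8 to 80.9) at L4, and 75.9% (70.4 to 80.8), 83.7% (77.6 to 88.7) and 87.3% (79.9 to 92.7) on Day 6. All Day 6 shares were above both L4 shares, although the interval of L4 replicate 2 overlapped each of those of Day 6 and that of L4 replicate 1 overlapped that of Day 6 replicate 1. These intervals cover counting error only. The log2 ratio of the pair was 1.80 higher on Day 6, with a 2-sided exact permutation p of 0.20, the smallest that 2 libraries against 3 allow, and an adjusted p of 0.40 over the 4 pairs compared.

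The epidermal activator elt-3 separated the L4 libraries from each other. It was read at 26.5 CPM in L4 replicate 1 and 7.74 CPM in L4 replicate 2, a 3.43-fold gap, and at 10.03, 13.2 and 10.07 CPM on Day 6. The Day 6 libraries lay between the L4 libraries and differed from each other by 1.32-fold. Its log2 fold change was -0.61 ± 0.62 (SE, adjusted p = 0.477 by edgeR), with a 95% interval of -2.06 to 0.83. The direction turned with the L4 library kept. Without L4 replicate 2 elt-3 fell, at a log2 fold change of -1.25 (adjusted p = 0.00365 by edgeR), and without L4 replicate 1 the value was 0.60 (adjusted p = 0.186 by edgeR). The median over all genes tested was 1.05 in the first of these fits and 0.07 in the second.

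The early epidermal determinant elt-1 was read at 3.29 and 1.59 CPM at L4 and at 3.02, 3.02 and 2.20 CPM on Day 6. All Day 6 values again lay between those of L4, which rest on 14 and 24 counts. Scaled by total counts alone, elt-1 stood at 0.964 and 2.56 CPM at L4 and at 2.76 to 4.91 CPM on Day 6. On that scale every Day 6 library was above both L4 libraries. Its log2 fold change of 0.21 ± 0.71 (SE, adjusted p = 0.838 by edgeR) had a 95% interval of -1.43 to 1.85, and its sign turned under RLE and upper-quartile scaling, which moved the median of all genes from 0.08 to -0.14 and -0.22. Among the 6 genes elt-1 has the longest exons, and in L4 replicate 1 the trend of counts with exon length was -1.13 on the log2 scale at that length, against -0.01 at the length of elt-7. With this trend removed the log2 fold change of elt-1 was -0.87 (adjusted p = 0.422 by edgeR).

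Within libraries, elt-3 had 8.07 and 4.88 times the counts of elt-1 in L4 replicates 1 and 2, and 3.32, 4.38 and 4.57 times on Day 6. The 3 Day 6 ratios were below both L4 ratios, with the log2 ratio at -0.63 on Day 6 relative to L4 (2-sided exact permutation p = 0.20, adjusted p = 0.40 over 4 pairs). Such ratios still hold the trend with exon length. In L4 replicate 1 that trend was -0.65 at the length of elt-3 and -1.13 at that of elt-1, which raises the ratio there. The order of the groups was not tested with the trend removed. L4 replicate 2 and Day 6 replicate 3 differed little, at 83.0% of the pair (95% exact binomial interval 75.7 to 88.8) and 82.0% (76.1 to 87.0).

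Of the intestinal genes, elt-7 was the only one whose groups did not overlap. It was read at 7.52 and 12.1 CPM at L4 and at 4.05, 4.996 and 5.36 CPM on Day 6, so that each Day 6 library was below each L4 library. The mean was 9.81 ± 3.25 CPM (SD, n = 2) at L4 and 4.80 ± 0.68 CPM (SD, n = 3) on Day 6. The log2 fold change of -1.04 ± 0.54 (SE) did not pass, with an adjusted p of 0.179 by edgeR's quasi-likelihood test and a 95% interval of -2.29 to 0.21. Without L4 replicate 1 elt-7 fell, at -1.26 (adjusted p = 0.0171 by edgeR), and without L4 replicate 2 the value was -0.64 and did not pass. Scaled by total counts alone, elt-7 stood at 2.20 and 19.5 CPM at L4 and at 4.17 to 8.13 CPM on Day 6, and the groups overlapped.

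The main intestinal activator elt-2 differed more between the 2 L4 libraries than any other member. There were 23 counts in L4 replicate 1 and 386 in L4 replicate 2, or 5.40 and 25.5 CPM, a 4.73-fold gap after scaling. The Day 6 libraries stood between them at 7.74, 14.4 and 11.1 CPM, within 1.86-fold of each other. Its log2 fold change was -0.50 ± 0.70 (SE, adjusted p = 0.612 by edgeR), with a 95% interval of -2.13 to 1.13. Without L4 replicate 1 elt-2 fell, at -1.13 (adjusted p = 0.0277 by edgeR), and without L4 replicate 2 the value was 1.04 (adjusted p = 0.0724 by edgeR), next to a median over all genes tested of 1.05.

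**Figure D2:**
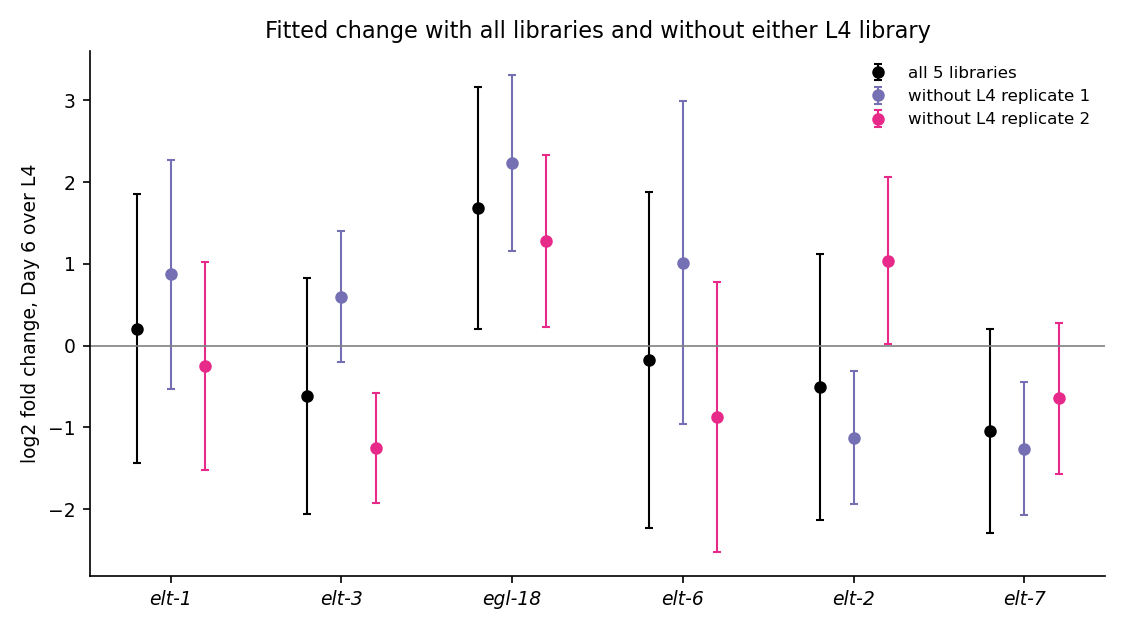
Fitted log2 fold change of Day 6 over L4 for each gene with its 95% interval (bars), from all 5 libraries (black), without L4 replicate 1 (violet) and without L4 replicate 2 (pink). The points of egl-18 are all above 0 (1.28 to 2.24) and those of elt-7 all below (-1.26 to -0.64), and the points of elt-2 and elt-3 change sign in opposite ways with the L4 library left out.

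The balance of elt-2 and elt-3 within each library does not depend on scaling, but the order of the L4 libraries for elt-3 does. Scaled by total counts alone, elt-3 stood at 7.78 and 12.5 CPM in L4 replicates 1 and 2. On that scale elt-2 stood at 1.58 and 41.2 CPM, so both genes were higher in L4 replicate 2. Of the counts of both genes together, elt-2 made up 16.9% in L4 replicate 1 (95% exact binomial interval 11.03 to 24.3) and 76.7% in L4 replicate 2 (72.8 to 80.4), and 43.6%, 52.2% and 52.4% in Day 6 replicates 1 to 3. The intervals of the L4 libraries lay far apart and on either side of those of Day 6, which ran from 39.3 to 57.7. Between the groups the log2 ratio of the pair differed by 0.25 (2-sided exact permutation p = 0.80, adjusted p = 0.80 over 4 pairs). In CPM after TMM scaling, genes of intestinal differentiation were ordered both ways in these libraries. Of 24, 14 were higher in L4 replicate 2, as elt-2 was, and 10 higher in L4 replicate 1. Epidermal structural genes were higher in L4 replicate 1, as elt-3 was, in 14 of 21. This order was not particular to epidermis, since 8 of 12 muscle markers and 16 of 18 germline and oocyte markers shared it. Of the neuron markers 5 of 12 were higher in L4 replicate 1, and of the vitellogenins 0 of 6. The part of library quality in these gaps was not tested.

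The pair elt-2 and elt-7, which share intestinal targets, kept a like balance in 4 of the 5 libraries. There were 2.11 counts of elt-2 for each of elt-7 in L4 replicate 2, and 1.91, 2.89 and 2.07 in Day 6 replicates 1 to 3. L4 replicate 1 was the exception at 0.719, where elt-2 made up 41.8% of the pair (95% exact binomial interval 28.7 to 55.9) against 65.6% to 74.3% in the other libraries. In that library the trend of counts with exon length was -0.71 at the length of elt-2 and -0.01 at that of elt-7. This lowers the ratio there, and the balance was not tested with the trend removed. The log2 ratio differed by 0.87 between the groups (2-sided exact permutation p = 0.60, adjusted p = 0.80 over 4 pairs).

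**Figure D3:**
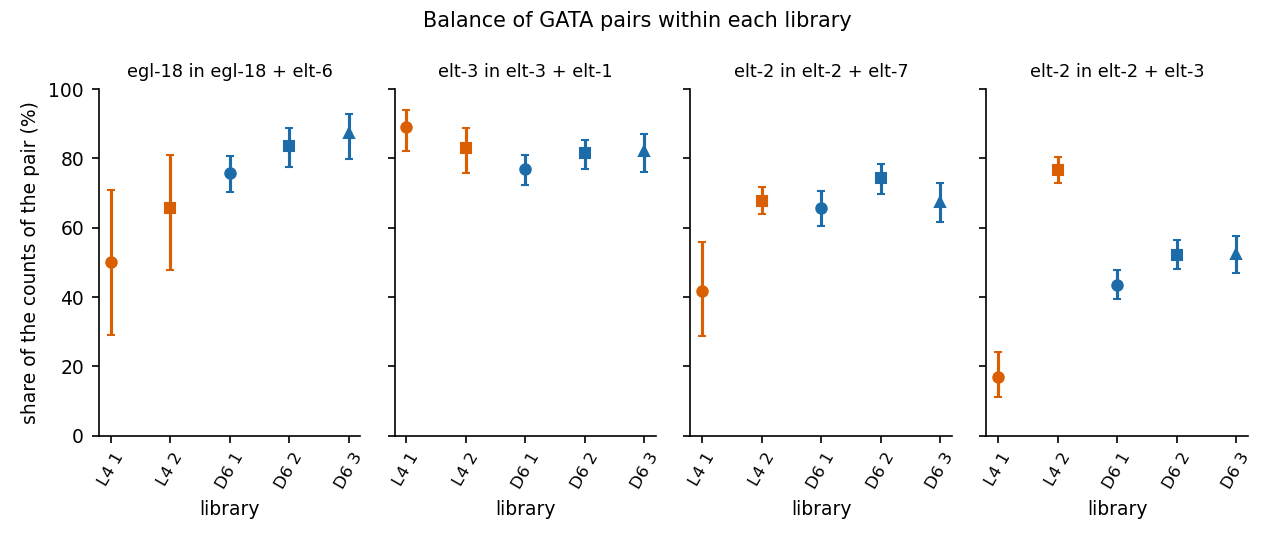
Share of the first-named gene in the counts of each pair (percent of counts), by library (D6 is Day 6), with 95% exact binomial intervals as bars, orange for L4 and blue for Day 6. The share of egl-18 is 50.0% and 65.7% at L4 and 75.9% to 87.3% on Day 6, and the share of elt-2 beside elt-3 is 16.9% and 76.7% in the 2 L4 libraries.

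Levels of different genes were compared per kilobase of exon. On Day 6 the order was elt-3 at 7.57 ± 1.24, elt-2 at 7.11 ± 2.15, elt-7 at 5.71 ± 0.80, egl-18 at 4.03 ± 0.35, elt-1 at 1.24 ± 0.21 and elt-6 at 1.08 ± 0.48 CPM per kilobase (SD, n = 3). Neighbors from elt-7 to egl-18 and from egl-18 to elt-1 did not overlap in any Day 6 library. The libraries of elt-3, elt-2 and elt-7 overlapped from one to the next, as did those of elt-1 and elt-6. Compared within each library, elt-2 was above elt-7 in 3 of 3, elt-3 above elt-2 in 1 of 3 and elt-1 above elt-6 in 2 of 3. At L4 elt-3 (11.7 ± 9.07), elt-7 (11.7 ± 3.86) and elt-2 (9.93 ± 9.14 CPM per kilobase; SD, n = 2) could not be ordered, since the highest was elt-3 in replicate 1 and elt-2 in replicate 2. The other 3 genes lay at 1.10 to 1.29 CPM per kilobase on average and below those 3 in both L4 libraries. Thus egl-18 stood with elt-1 and elt-6 at L4 and between them and the intestinal genes on Day 6.

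Of 7 other genes of GATA-type zinc finger proteins, 5 were found in the files, and med-1 and med-2 were not analysed here. egl-27, which encodes a relative of the human MTA proteins of chromatin remodeling complexes, was the one that rose. It was read at 5.40 and 17.1 CPM at L4 and at 53.2, 56.0 and 55.4 CPM on Day 6, every Day 6 library being higher, with a log2 fold change of 2.26 ± 0.62 (SE, adjusted p = 0.0338 by edgeR). Of the 2 genes of this group that were tested, 0 passed by edgeR with the trend of counts on exon length removed or with any one of the Day 6 libraries left out. Its relative lin-40 had a log2 fold change of 0.36 ± 0.53 (SE, adjusted p = 0.627 by edgeR). Without L4 replicate 1 lin-40 rose as well, at 1.10 (adjusted p = 0.0222 by edgeR).

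The remaining GATA genes were near the limit of detection. end-1 and end-3 specify the endoderm in the early embryo, and both had 0 counts in the L4 libraries, which allows up to 0.705 CPM in replicate 1 and 0.199 CPM in replicate 2 at a floor of 3 counts. On Day 6 end-1 had 12, 1 and 25 counts and end-3 had 0, 6 and 0. elt-4, a short gene close to elt-2 on the X chromosome, had 0 and 10 counts at L4 and 10, 4 and 4 on Day 6. None of these 3 passed the filter on low counts in the fit of all 5 libraries. Some of them entered other fits, such as end-1 and elt-4 without L4 replicate 1 and all 3 with no filter. None of the 3 was called in any fit.

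Beside the GATA factors, genes of intestinal differentiation mostly had lower values on Day 6. Of 24 genes, 11 fell, 1 rose and 12 did not pass, with a median log2 fold change of -1.83 against 0.08 over all genes tested. DESeq2 called 18 lower and 2 higher, and without L4 replicate 1 or 2, 16 or 18 fell and 3 or 6 rose. act-5, the actin of the microvilli, fell from 5573 ± 5869 CPM (SD, n = 2) to 210.8 ± 19.2 CPM (SD, n = 3), at a log2 fold change of -4.72 (adjusted p = 0.0222 by edgeR). vha-6, a subunit of the apical proton pump, fell at -3.17 (adjusted p = 0.0378 by edgeR). Both still fell without L4 replicate 1, at -2.68 for act-5 and -1.38 for vha-6. The exception was mtl-1, a metallothionein, which rose from 0 and 3 counts in the L4 libraries to 100, 90 and 122 counts on Day 6 (adjusted p = 0.0154 by edgeR). Of the 6 vitellogenins, the yolk proteins made by the intestine, vit-5 alone passed, at 6.61 (adjusted p = 0.0329 by edgeR), and all 6 passed with DESeq2, with voom or without L4 replicate 1. Reads of vitellogenin genes may be shared among near copies. Leaving out Day 6 replicate 1, 2 or 3 kept 1, 2 or 1 of the 11 falls among the intestinal genes and none of the vitellogenin calls, with medians of the 24 genes from -1.98 to -1.85.

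None of 11 other regulators of intestinal transcription passed, and their median log2 fold change was 0.28. The most abundant were atf-7, a CREB/ATF factor of innate immunity, at 0.85 ± 0.51 (SE, adjusted p = 0.237 by edgeR), and skn-1, a factor of the stress response, at 0.76 ± 0.45 (SE, adjusted p = 0.236 by edgeR). One of the 11 had an unadjusted p under 0.05 by edgeR, DESeq2 called 1 lower and voom called 0. Without L4 replicate 1, 2 of the 11 fell, and without L4 replicate 2, 4 rose and 1 fell.

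Structural genes of the epidermis, most of them for the cuticle, had the lowest median of the 12 groups examined. Of 21 genes, 15 fell and 0 rose by edgeR, with a median log2 fold change of -5.70, and 11 to 16 fell when any one library was left out. One of them rose without L4 replicate 1, and 3 rose without L4 replicate 2. The collagen gene col-144 fell at -10.38 (adjusted p = 0.00515 by edgeR) to 2.38 ± 0.95 CPM on Day 6 (SD, n = 3), and at -7.58 without L4 replicate 1. The collagen dpy-13 fell from 1791 ± 338 CPM (SD, n = 2) to 6.56 ± 2.72 CPM (SD, n = 3), at -8.09 (adjusted p = 0.00354 by edgeR). Collagen genes are alike in sequence, and how reads matching several of them were counted is not given in the sources used here. The 6 genes that did not pass included col-19, a collagen of the adult cuticle, at 18.6 and 486 CPM at L4 and 327, 367 and 183 CPM on Day 6.

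Among 9 other regulators of epidermal transcription, 1 rose, 1 fell and 7 did not pass, with a median of -0.79. lin-26, a zinc finger gene needed to keep the epidermal fate, rose from 9.49 ± 1.53 CPM (SD, n = 2) to 39.4 ± 8.94 CPM (SD, n = 3), at a log2 fold change of 2.06 (adjusted p = 0.0249 by edgeR). bed-3, a gene needed for molting, fell at -3.33 (adjusted p = 0.0326 by edgeR). Of the 9, 2 rose and 4 fell without L4 replicate 1. With any one of the Day 6 libraries left out neither gene passed. The call of lin-26 was also lost when the length trend was taken out, and that of bed-3 without L4 replicate 2.

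Of 20 genes of seam cells and of the Wnt pathway that acts on egl-18 and elt-6, 17 were tested, 4 rose, 2 fell and 11 did not pass, with a median of -0.38. Over all genes tested 14.3% rose and 12.5% fell. All 4 that rose and both that fell encode components of Wnt signaling, for which the list was chosen in part. Leaving out Day 6 replicate 1, 2 or 3 kept 1, 2 or 1 of the 4 rises and 0 of the falls. Those that rose were sys-1 and wrm-1, both beta-catenins, at 3.45 and 3.89 (adjusted p = 0.0400 and 0.00591 by edgeR), apr-1, the APC homolog, at 3.87 (adjusted p = 0.0116 by edgeR), and the Frizzled receptor mom-5 at 2.62 (adjusted p = 0.0267 by edgeR). The receptor lin-17 fell at -2.61 (adjusted p = 0.0159 by edgeR), as did the Wnt ligand lin-44 at -3.62 (adjusted p = 0.0351 by edgeR), whose call was lost without L4 replicate 1 (-0.55, adjusted p = 0.512 by edgeR). The defining genes of seam cells were sparse. ceh-16, which acts with egl-18 in seam cells, had 1 and 0 counts at L4 and 27, 5 and 13 on Day 6 and did not pass (adjusted p = 0.173 by edgeR), and nhr-73 had at most 3 counts in any library. nhr-74 went the other way, with 14 and 76 counts at L4 and 42, 30 and 27 on Day 6. In CPM each Day 6 library of nhr-74 was below each L4 library. Its log2 fold change of -1.51 did not pass (adjusted p = 0.119 by edgeR).

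**Figure D4:**
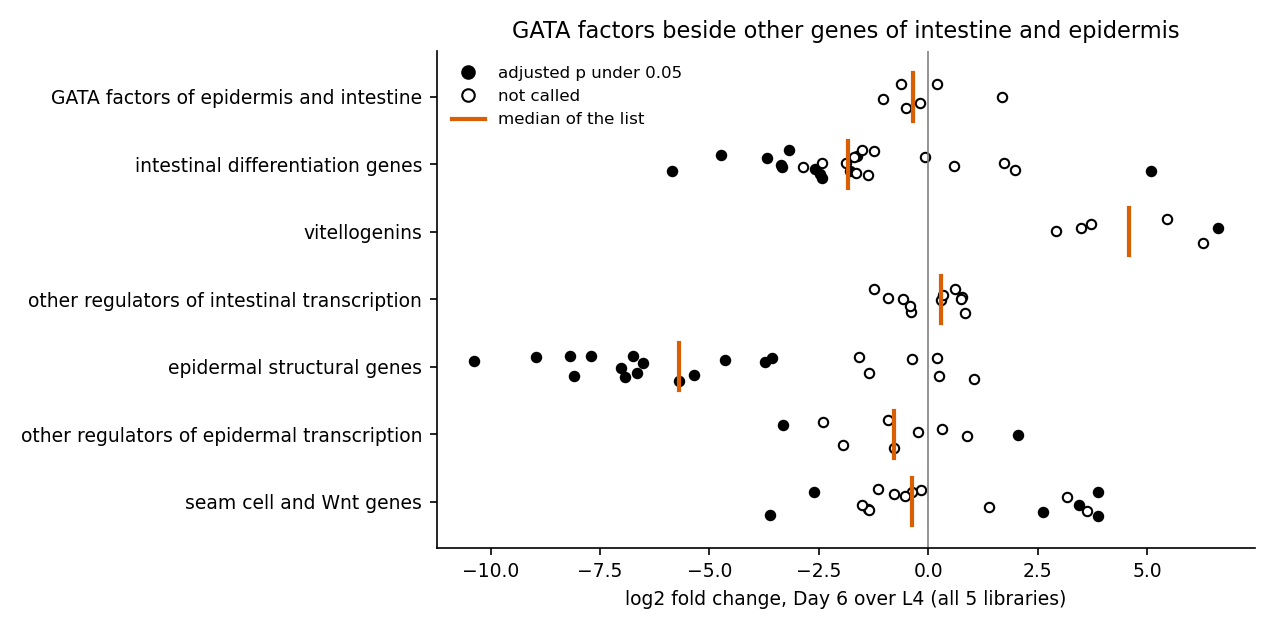
Log2 fold change of Day 6 over L4 (all 5 libraries) of each tested gene of 7 groups, filled where the adjusted p by edgeR was under 0.05 and open otherwise, with the median of each group as an orange line. All 6 GATA factors are open points with a median of -0.34, while 15 of 21 epidermal structural genes and 11 of 24 intestinal differentiation genes fell.

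Cells other than epidermis and intestine also differed in their markers. Germline and oocyte markers rose in 17 of 18 genes, with cpg-2 and cpg-1 of the eggshell at 5.40 and 5.64 (adjusted p = 0.0162 and 0.00944 by edgeR), and their summed level went from 0.0164% and 0.0602% of counts at L4 to 1.22% to 1.59% on Day 6. Of the 17, 11, 14 and 8 rose without Day 6 replicates 1, 2 and 3. On the list of early zygotic genes of the embryo 2 rose and 2 fell of the 6 tested. pal-1, a homeobox gene of this list that is also maternally supplied, rose at 3.86 (adjusted p = 0.00539 by edgeR). Its rise therefore cannot be read as zygotic. hnd-1 rose from 0 counts in both L4 libraries to 78, 31 and 25 on Day 6 (adjusted p = 0.0190 by edgeR), whereas nob-1 and hlh-1 fell at -3.51 and -2.78 (adjusted p = 0.0158 and 0.0280 by edgeR). Muscle markers fell in 4 of 12 genes, among them lev-11 at -3.77 and mup-2 at -3.92 (adjusted p = 0.0351 and 0.0141 by edgeR), with a call in 0 of the 12 by edgeR when any one Day 6 library was left out and -2.12 for lev-11 without L4 replicate 1, and a summed level of 0.713% and 1.53% of counts at L4 and 0.333% to 0.507% on Day 6. None of 12 neuron markers passed by edgeR, DESeq2 or voom and 0 had an unadjusted p under 0.05 by edgeR, the most abundant being snb-1 at -0.01 and egl-21 at -1.12. With L4 replicate 1 left out, 2 neuron markers rose and 1 fell, with snb-1 at 1.53 (adjusted p = 0.0230 by edgeR) and egl-21 at 0.87 (adjusted p = 0.0981 by edgeR), and without L4 replicate 2, 5 rose and 2 fell. Of the 23 called genes named in these lists, 3, 6 and 3 passed without Day 6 replicates 1, 2 and 3, and each kept its sign. The part of embryos and germline in the values of egl-18, egl-27, lin-26 and the Wnt genes was not tested.

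The genes most like each member across the 5 libraries were found by the root mean square (RMS) difference of log2 CPM after centring each gene. tdpt-1 and tofu-5 were nearest to egl-18, at 0.08 and 0.09, and 88 genes lay within 0.25. gba-1 and dop-5 were nearest to elt-7, nhr-106 and C27B7.7 to elt-2, C05C10.7 and C09G4.4 to elt-3, and hda-10 and W09C5.1 to elt-1, each at an RMS difference of at most 0.12. elt-6 had the fewest genes so close, with 34 within 0.25 and glna-1 and endu-2 nearest at 0.14 and 0.13.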

How the data were processed

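The authors counted reads per gene, and the deposited values are these raw counts, from single reads of rRNA-depleted, strand-specific libraries aligned to WormBase WS254 with TopHat2 and counted with featureCounts. Tool versions, the strand setting and the rule for multi-mapping reads are not given in the sources used here. Features were named through WormBase IDs (17860), locus tags (1164) or aliases (152). Counts were tested in R 4.3.3 with edgeR 4.0.16 (quasi-likelihood, TMM, minimum count 10, minimum total count 15, group as the only term), which left 12758 genes, adjusted by Benjamini-Hochberg. Members and lists were chosen with earlier results of these data known. Named genes were all GATA genes, up to 2 that rose and 2 that fell per list by mean CPM (the top 2 where none passed), and the 2 nearest profiles per member; markers of the tissues and sys-1 and wrm-1 were added after their values were seen. DESeq2 1.42.0, limma 3.58.1 (voom), other scalings and filters, a replicate block, a length trend and each library left out were alternatives. The replicates are described as independent biological replicates, and which cohort each L4 library came from was not settled, because its title and its library name carry different numbers.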

Additional observations from a re-analysis of the deposited data

How the results depend on the processing

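Over 16 alternatives egl-18 was positive in all 16 (log2 fold change 1.05 to 2.44) and elt-7 negative in all 16 (-1.34 to -0.64), and the other 4 members changed sign. With each library left out in turn the values ran from -0.25 to 0.87 for elt-1, -1.13 to 1.04 for elt-2, -1.25 to 0.60 for elt-3, -0.87 to 1.02 for elt-6, -1.26 to -0.64 for elt-7 and 1.28 to 2.24 for egl-18, and 0 to 1 members rose and 0 to 2 fell. elt-1 reversed under RLE (-0.0946), upper-quartile scaling (-0.12), DESeq2 (-0.0862) and removal of the length trend (-0.87), and elt-6 with voom (0.15). Library size scaling, added after the data were seen, reversed elt-3 (0.54) and elt-6 (0.85). With the length trend removed and L4 replicate 1 left out, egl-18 rose (2.22), elt-2 (-1.12) and elt-7 (-1.14) fell, so that 1 member rose and 2 fell, and elt-3 (0.65) and elt-6 (1.11) reversed. With a replicate block by title number, egl-18 was 1.79 (adjusted p = 0.351 by edgeR) and elt-6 reversed (0.24), and with a replicate block by library-name number egl-18 was 1.69 (adjusted p = 0.541) and elt-2 reversed (0.0763). Neither block called a member. Of the germline and oocyte markers 14 and 5 rose with the blocks, and of the intestinal genes 3 and 2 fell. Of the 23 called genes named from other lists, 7 and 5 passed with these blocks, 8 with library size scaling, 20 with the length trend removed and 22 or 23 under the other alternatives that kept all 5 libraries, with no change of sign. Deviations of libraries with the same title number correlated at 0.34 and 0.27, and with the same library-name number at -0.27 and 0.13. The deviations of the 2 L4 libraries mirror each other, so these values are not independent and cannot decide between the pairings. Over all genes, 1829 rose and 1601 fell, against 1545 and 2054 with upper-quartile scaling, 2296 and 2763 with DESeq2, 817 and 645 with the title block, 412 and 359 with the library-name block, and 150 and 175 with library size scaling. Without Day 6 replicates 1, 2 and 3 the counts were 266, 484 and 240 genes risen and 298, 502 and 308 fallen. The cause of these shifts was not tested. Low counts limit elt-1, elt-6 and egl-18 at L4, at 12 to 24 counts a library.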
